A study of Mus musculus with 6 samples.

Results

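The PYHIN genes, also called the Ifi200 family, lie side by side on mouse chromosome 1. Members were taken by name: Aim2, Ifi202b, Ifi203, Ifi204, Ifi207, Ifi209, Ifi211, Ifi213, Mnda and Mndal. Of these 10 names, 9 had a row among the 54532 genes of the table, and 8 had enough signal to be tested. Mnda had no row under that name and was not analysed here. RefSeq lists it as an older name of Ifi211.

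RNA sequencing had been carried out on mouse bone marrow-derived macrophages (BMDMs), cells grown from the marrow of C57BL/6 mice aged 6 to 8 weeks, after co-culture with ID8 cells, a mouse ovarian cancer line. In the cisplatin group (3 libraries) the ID8 cells had first been exposed to 40 µM cisplatin, a chemotherapy drug that forms crosslinks in DNA. In the PBS group (3 libraries) they had been given phosphate-buffered saline. The comparison asks how tumour cells exposed to the drug act on these marrow-derived cells in culture. The study's methods call them monocytes and name no growth factor in their medium. Both groups contained ID8 cells, there was no library of BMDMs alone, and the way in which BMDMs were separated from ID8 cells is not given in the sources used here. The study's methods speak of biological replicates without saying whether the libraries of a group came from separate cultures or animals, so the p-values below measure the spread between these libraries, which may be partly technical.

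PYHIN proteins join a pyrin domain, which binds other pyrin domains, to HIN-200 domains, which bind DNA. AIM2 detects double-stranded DNA in the cytosol and recruits the adaptor ASC, encoded by Pycard, so that caspase-1 is activated and an inflammasome forms. IFI204, a mouse relative of human IFI16, has been linked to DNA sensing through STING. Many genes of the family are induced by interferons, and macrophages are among the cells in which they are best known. Ifi202b encodes a protein without a pyrin domain and is known for large differences in expression between mouse strains.

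The members lay between positions 173350879 and 173982744 of chromosome 1 (GRCm38). The whole cluster, with Ifi205 at its far end, spanned 681 kb. The order was Aim2, Ifi206, Ifi214, Ifi213, Ifi209, Ifi208, Ifi207, Ifi204, Ifi203-ps, Mndal, Ifi211, Ifi203, Ifi202b and Ifi205. Aim2, Ifi209 and Ifi208 are on the plus strand and the others on the minus strand. The annotated span of Mndal contains Ifi211 and reaches into Ifi203. Mndal and Ifi203 share 37 exon bases, while Ifi211 shares no exon bases with another gene.

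Promoter sequences are shown because most genes of the family share an element there, whether they were called or not. RefSeq (GRCm38.p6) gave a window of 250 bases before to 50 bases after the start for 12 family genes, 8 of them members. Ifi204 and Ifi203-ps were not matched. The letters GAAANNGAAA, the core of the interferon-stimulated response element bound by interferon-activated transcription factors, were searched on both strands. They occurred in the windows of 9 of the 12 genes (Ifi203, Ifi205, Ifi206, Ifi207, Ifi208, Ifi211, Ifi213, Ifi214 and Mndal) and in 3.99% of all 27025 genes with such a window. For Ifi203 and Mndal, which have 2 listed starts each, a match in either window counted. The 3 genes without a match were Aim2, Ifi202b and Ifi209. Among interferon-induced genes outside the family, 10 of the 16 with a window held the motif.

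The next windows, each of 60 bases upstream of the start and read 5′ to 3′ on the strand of the gene, carry the element in capitals. Ifi211 and Ifi205 are 2 genes that were strongly downregulated, Ifi203 is a gene near the threshold, and Ifi207, Ifi213 and Ifi209 are genes that did not pass it. They lie at chr1:173913053-173913112 (Ifi211, minus strand), chr1:174031859-174031918 (Ifi205, minus), chr1:173942497-173942556 (Ifi203, minus), chr1:173741820-173741879 (Ifi207, minus), chr1:173599315-173599374 (Ifi213, minus) and chr1:173630751-173630810 (Ifi209, plus).
Ifi211: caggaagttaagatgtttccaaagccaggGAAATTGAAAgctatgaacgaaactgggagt
Ifi205: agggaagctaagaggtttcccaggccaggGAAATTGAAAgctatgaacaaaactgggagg
Ifi203: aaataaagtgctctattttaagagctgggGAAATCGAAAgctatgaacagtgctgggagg
Ifi207: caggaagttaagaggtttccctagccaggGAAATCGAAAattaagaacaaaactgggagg
Ifi213: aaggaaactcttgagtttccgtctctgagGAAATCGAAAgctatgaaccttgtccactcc
Ifi209: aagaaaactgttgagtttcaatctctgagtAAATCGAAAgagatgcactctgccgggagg

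The element took the form GAAATCGAAA in 7 of the 12 genes and GAAATTGAAA in Ifi205 and Ifi211. Ifi209 held only the shorter AAATCGAAA. These forms were chosen after the sequences had been read. Over all promoter windows of the table, 0.0487% held GAAATCGAAA and 0.116% held GAAATTGAAA on either strand. The shorter AAATNGAAA, which overlaps both, occurred in 10 of the 12 genes and in 1.87% of all windows. The gamma-activated site TTCNNNGAA, the same on both strands, occurred in the Ifi202b window only and in 8.30% of all windows. A match is a description of the letters and not of binding.

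The libraries held between 15776238 and 17924686 reads, recovered from the deposited FPKM values, which correct the fragments of a gene for its length and for sequencing depth. At that depth each of the 8 tested members rested on at least 179 reads in every library, and all 8 passed the filter (FPKM of at least 1 in at least 3 libraries) in both groups. Marker levels differed between groups. All 15 macrophage and monocyte markers were above 0 in every library, and their summed FPKM ranged from 5689 to 5839 with cisplatin and from 2509 to 2546 with PBS. Of the 15, 5 passed the test as higher and none as lower, with Mertk and Aif1 reaching the filter only through the cisplatin group. For 19 ID8 and mesothelial markers the sum was 294 to 307 with cisplatin and 1415 to 1522 with PBS, 9 of the 12 tested were called lower, and none was at 0 in all libraries, although 7 stayed under 1 FPKM. The sums were also higher with cisplatin for other cell types. For T, B and NK cell markers they were 444 to 455 against 198 to 206, with 4 of 7 tested called higher. For dendritic cell markers they were 44.6 to 46.9 against 19.1 to 20.5, with 3 of 5 called higher. Of these, Flt3 was tested only through its cisplatin values. The dendritic cell marker Zbtb46 went the other way (log2 fold change -0.69, not called). For granulocyte markers they were 8259 to 8526 against 4609 to 4764, with 5 of 9 called higher. The granulocyte sum exceeded the macrophage sum in both groups. The 4 Y-linked genes summed to 41.6 to 42.8 with cisplatin and 19.5 to 22.7 with PBS, and Xist to 7.57 to 7.94 and 39.0 to 48.8. Their part in the results below was not tested.

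With cisplatin-pretreated ID8 cells, 4 members were downregulated: Ifi211, Ifi204, Mndal and Ifi203. No member was upregulated past the threshold. Aim2, Ifi207 and Ifi209 were slightly higher, and Ifi213 overlapped between groups. A gene was called when its adjusted p (limma on log2(FPKM + 1), Benjamini-Hochberg over all 13441 genes tested) was under 0.05 and its log2 fold change at least 1 in size. Of all genes tested, 11.3% were called lower and 4.67% higher, beside 4 of 8 members lower and 0 of 8 higher. In bulk RNA, fewer cells of a type and less RNA per cell cannot be told apart.

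The scaling of the libraries bears on these directions. When they were scaled by the Y-linked genes, 5181 genes were called lower and 85 higher, against 1514 and 628 without it, and the median of all genes moved to -0.83. That is 38.5% of all genes lower and 0.632% higher. When they were scaled by the macrophage and monocyte markers, the counts were 6606 (49.1%) and 65 (0.484%) and the median was -0.99. That scaling used the summed FPKM of the markers and so leaned on Lyz2. Its mean was 3459 of a sum of 5689 to 5839 with cisplatin and 1161 of 2509 to 2546 with PBS. The log2 fold change of Lyz2 was 1.57, beside a median of 0.87 over the markers. Calls made under this scaling alone depend on that gene. The median over all genes was -0.0011 in the scaling of the deposited values. Ifi211, Ifi204, Mndal and Ifi203 were called lower under all of these, and under the macrophage scaling 4 of 8 members stood beside a like share of all genes.

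Ifi211, one of the highly expressed members in the PBS group, had the largest fall of the tested members. Its FPKM was 88.3, 94.7 and 81.1 in the PBS libraries and 8.96, 6.89 and 6.07 in the cisplatin libraries. The groups were far apart, with the lowest PBS library well above the highest cisplatin library, and the ratio of the means was 12.0. The log2 fold change was -3.43 (SE 0.127, limma adjusted p = 8.94e-07), on a log2(FPKM + 1) scale that understates changes at low levels.

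The reads of Ifi211 are the least certain of the family. Of its 50-base stretches, 72.8% also occur in transcripts of other genes, chiefly Ifi205 (44.7%) and Ifi204 (30.1%), and of its 100-base stretches 56.9% do. How such reads were counted is not given in the sources used here. Both of those genes were also downregulated.

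Ifi204, the DNA sensor, had the highest mean of the family in the PBS group. Its FPKM was 96.8, 108 and 98.8 with PBS and 17.0, 15.4 and 14.5 with cisplatin. All 3 cisplatin libraries lay far below all 3 PBS libraries. The log2 fold change was -2.62 (SE 0.0674, limma adjusted p = 2.05e-07), and the ratio of the means was 6.47. Between 854 and 6102 reads lay behind each value, and 10.7% of the 100-base stretches of Ifi204 occur in other genes.

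Mndal, named for its likeness to the human myeloid cell nuclear differentiation antigen, had FPKM values of 88.5, 102 and 91.0 with PBS and 39.3, 34.9 and 33.0 with cisplatin. The groups did not overlap. Its log2 fold change was -1.37 (SE 0.0778, limma adjusted p = 6.96e-06), smaller than that of Ifi204 although both stood at a like level with PBS.

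Ifi203 had FPKM values of 58.4, 68.5 and 59.8 with PBS and 29.5, 27.2 and 29.4 with cisplatin. Each cisplatin library was below each PBS library. The log2 fold change of -1.09 (SE 0.0680, limma adjusted p = 1.09e-05) had a 95% interval from -1.25 to -0.93, which includes the fold threshold of 1. Tested against a fold of 2 itself (limma treat), Ifi203 was not called and 3 members remained lower.

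**Figure D1:**
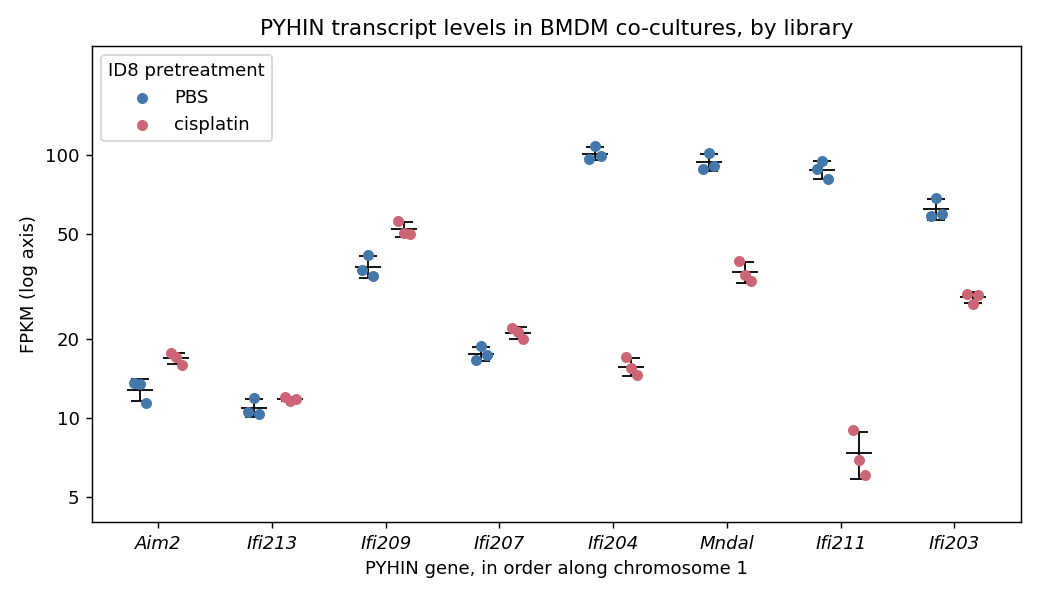
FPKM of the 8 tested PYHIN members in each library on a log axis, with PBS libraries in blue and cisplatin libraries in red, and black marks for the mean and SD of 3 libraries. Ifi204, Mndal, Ifi211 and Ifi203 lie lower with cisplatin, Aim2, Ifi209 and Ifi207 lie slightly higher in the deposited scaling (lower when scaled by Y-linked genes or macrophage markers), and Ifi213 overlaps.

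Aim2, the inflammasome sensor, did not share the fall. Its FPKM was 13.5, 13.5 and 11.4 with PBS and 17.6, 17.0 and 15.9 with cisplatin, so that the groups did not overlap. The log2 fold change was 0.37 (SE 0.0743, limma adjusted p = 0.00367), under the fold threshold. It was -0.56 when scaled by the Y-linked genes and -0.74 when scaled by the macrophage and monocyte markers, which is 0.27 and 0.25 above the median of all genes under those scalings. Only 0.742% of the 50-base stretches of Aim2 occur elsewhere.

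Ifi209 had FPKM values of 36.4, 41.7 and 34.7 with PBS and 56.2, 50.6 and 49.9 with cisplatin. All cisplatin libraries were above all PBS libraries. The log2 fold change was 0.47 (SE 0.0782, limma adjusted p = 0.00156), and it turned to -0.51 when scaled by the Y-linked genes and -0.69 by the macrophage markers. Ifi209 shares 33.4% of its 50-base stretches with Ifi214.

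Ifi207 had FPKM values of 16.6, 18.8 and 17.3 with PBS and 21.9, 21.2 and 19.9 with cisplatin, again without overlap. Its log2 fold change was 0.25 (SE 0.0590, limma adjusted p = 0.00829), and -0.70 and -0.88 under the same scalings. Of all genes tested, 37.2% were lower in every cisplatin library than in every PBS library and 35.2% were higher, so a lack of overlap on its own was common. Without a fold threshold, at an adjusted p under 0.05 alone, 35.1% of genes were lower and 32.9% higher.

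Ifi213 had FPKM values of 10.5, 11.9 and 10.3 with PBS and 11.9, 11.6 and 11.8 with cisplatin. The ranges overlapped, because the second PBS library lay among the cisplatin libraries. The log2 fold change was 0.10 (limma adjusted p = 0.157), with a 95% interval from -0.036 to 0.24. Scaled by the Y-linked genes it was -0.81, and scaled by the macrophage markers -0.98, each within 0.019 of the median of all genes.

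Ifi202b was close to undetected. It had 0, 5 and 1 reads in the PBS libraries and 0 in each cisplatin library, which corresponds to 0, 0.189 and 0.038 FPKM with PBS. A count of 0 allows up to 3 reads, or 0.104, 0.108 and 0.107 FPKM in the cisplatin libraries, for counting error only. Ifi202b did not pass the filter, and no difference was detectable at this depth. None of its 50-base stretches occurs in other genes of the annotation.

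Over the 8 tested members the log2 fold changes had a median of -0.49, beside -0.0011 over all genes tested. No member lay near that median, since the 4 lower members lay at -1.09 or below and the other 4 at 0.10 or above.

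Of 10 further family names outside the member list, 5 had a row and all 5 were tested, 2 were called lower and none higher (11.3% and 4.67% of all genes), and their median was -0.016. Ifi205, the gene of a PYHIN protein linked to the expression of ASC in mouse macrophages, had FPKM values of 10.5, 11.8 and 11.7 with PBS and 0.225, 0.525 and 0.333 with cisplatin. That is a ratio of 31.4 between means resting on 16 to 36 reads in the cisplatin libraries, and the log2 fold change was -3.18 (limma adjusted p = 4.45e-07). Ifi205 passed the filter only through the PBS group.

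The pseudogene Ifi203-ps had FPKM values of 14.1, 18.7 and 14.7 with PBS and 1.79, 1.31 and 1.66 with cisplatin. It was called lower (log2 fold change -2.70, limma adjusted p = 2.17e-06). Of its 50-base stretches 26.3% occur in other genes, most of them in Ifi203 (24.3%).

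Ifi206, Ifi208 and Ifi214 were not called. Ifi206 had FPKM values of 13.3, 14.8 and 12.5 with PBS and 14.2, 12.7 and 13.1 with cisplatin. Ifi208 had 5.42, 5.89 and 6.21 with PBS and 6.21, 5.49 and 5.80 with cisplatin. Both overlapped between groups, and their log2 fold changes were -0.016 (95% interval -0.18 to 0.15) and -0.0002 (-0.16 to 0.16). When scaled by the Y-linked genes they were -0.94 and -0.85, and when scaled by the macrophage markers -1.12 and -1.01, which was called lower for both, as 49.1% of all genes were. Ifi214, at 1.59, 1.78 and 1.70 with PBS and 3.13, 2.47 and 2.82 with cisplatin, did not overlap, with a log2 fold change of 0.50 (limma adjusted p = 0.00205) that turned to -0.19 and -0.31 under scaling by the Y-linked genes and by the macrophage markers.

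Laid out by position, the values divided into 2 neighbouring runs, a division seen after the values and therefore given with no test. The 7 genes from Aim2 to Ifi207 were not called and had log2 fold changes from -0.016 to 0.50 in the deposited scaling. Scaled by the macrophage markers all 7 were below 0, and Ifi206 (-1.12) and Ifi208 (-1.01) were called lower. All 6 tested genes from Ifi204 to Ifi205 were called lower, from -3.43 to -1.09, beside 11.3% of all genes. When scaled by the Y-linked genes and by the macrophage markers, 38.5% and 49.1% of all genes were called lower. Ifi205 passed the filter only through the PBS group, and the untested Ifi202b lies within this run. Ifi207 and Ifi204, which end and begin the runs, are 5.54 kb apart. In that pair the ratio of FPKM of Ifi204 to Ifi207 was 5.82, 5.76 and 5.73 with PBS and 0.776, 0.727 and 0.731 with cisplatin, and a ratio within a library does not depend on its scaling.

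**Figure D2:**
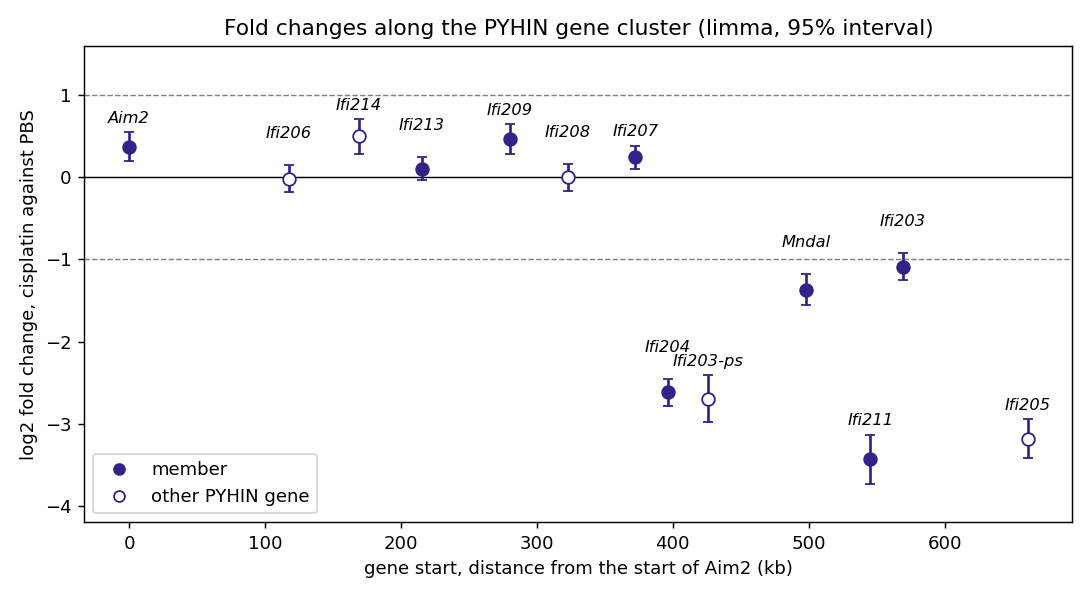
Log2 fold change with its 95% interval (limma) for the 13 tested PYHIN genes against the distance of the gene start from that of Aim2 in kb, with filled points for members and open points for other family genes, and dashed lines at the fold threshold of 1. Genes from Aim2 to Ifi207 lie between -0.016 and 0.50 in the deposited scaling, where Aim2, Ifi207, Ifi209, Ifi213 and Ifi214 are above 0 (below it when scaled by Y-linked genes or macrophage markers, where Ifi206 and Ifi208 reach -0.94 and -0.85 or -1.12 and -1.01), and genes from Ifi204 onward lie at -1.09 or below.

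Genes around the cluster had little signal. Within 250 kb of the members there were 32 genes outside the family, 18 of them olfactory receptor genes, and 29 were under 1 FPKM in every library. The 3 that were tested were Fcer1a and the miRNA genes Gm44481 and Gm44339. Fcer1a, the alpha chain of the high-affinity IgE receptor, had FPKM values of 2.55, 1.29 and 1.42 with PBS and 5.30, 4.64 and 5.28 with cisplatin, and was called higher (log2 fold change 1.17, limma adjusted p = 0.000738). It was 0.43 when scaled by the Y-linked genes and 0.30 by the macrophage markers, and was then not called. Gm44481, annotated on the opposite strand within Ifi214, ranged from 0.768 to 5.38 FPKM with PBS and from 0.725 to 2.88 with cisplatin. Gm44339, on the opposite strand within Ifi209, ranged from 1.35 to 3.07 and from 0.721 to 2.17. Whether reads were counted by strand is not stated. Both miRNA genes are 84 bases long, so these values rest on only a few reads per library. The groups overlapped for both in the deposited scaling. Gm44339 was called lower under the other scalings (-1.04 and -1.15), a call that so few reads cannot carry.

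Among windows most identical over the aligned length, gaps counted, most pairs had fold changes near each other, and Ifi207 and Ifi211 did not. The windows of Ifi209 and Ifi214 were 95.3% identical over the aligned length (the closest pair of windows where a gene has 2) and the genes had log2 fold changes of 0.47 and 0.50 (-0.51 and -0.19 when scaled by Y-linked genes, -0.69 and -0.31 by macrophage markers). Those of Ifi203 and Mndal were 90.7% identical, with -1.09 and -1.37. Ifi208 and Ifi213 were 89.5% identical, with -0.0002 and 0.10, and Ifi206 and Ifi208 were 87.5% identical, with -0.016 and -0.0002. In contrast, Ifi207 and Ifi211 were 85.9% identical and had 0.25 and -3.43. Gaps lower this measure where the element lies at different distances from the start (-134 in Ifi205, -41 in Ifi207). Ifi205 and Ifi207 had 182 identical, 22 mismatched and 192 gap bases, with log2 fold changes of -3.18 and 0.25. For Ifi205 and Ifi211 these were 190, 11 and 198, with -3.18 and -3.43. Some pairs also share transcript stretches of 50 bases (33.4% of Ifi209 with Ifi214, 18.1% of Ifi208 with Ifi213), a limit on comparing their fold changes. As printed above, Ifi207 holds the GAAATCGAAA form and Ifi211 the GAAATTGAAA form, and genes with the first form were found in both runs of the cluster. These pairs are a description and carry no test.

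The make-up of the family differed between groups. Summed over members, the FPKM was 424 ± 30.0 (SD, n = 3) with PBS and 189 ± 11.6 (SD, n = 3) with cisplatin. With PBS the order of levels was Ifi204, Mndal, Ifi211, Ifi203, Ifi209, Ifi207, Aim2, Ifi213 and Ifi202b. The range of Ifi204 overlapped with that of Mndal and the range of Mndal with that of Ifi211, as did those of Aim2 and Ifi213. With cisplatin it was Ifi209, Mndal, Ifi203, Ifi207, Aim2, Ifi204, Ifi213, Ifi211 and Ifi202b, and only Aim2 and Ifi204 overlapped.

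As a share of the summed FPKM, Ifi209 went from 8.86% ± 0.268 (SD, n = 3) with PBS to 27.6% ± 0.211 (SD, n = 3) with cisplatin. The share of Ifi211 was 20.8% ± 0.765 with PBS and 3.84% ± 0.540 with cisplatin, and that of Ifi204 was 23.9% ± 0.485 and 8.27% ± 0.192. Aim2 made up 3.02% ± 0.254 with PBS and 8.89% ± 0.258 with cisplatin, a difference of 5.87 percentage points. Mndal, which had the largest mean FPKM over the pooled libraries but stood first in neither group, made up 22.1% ± 0.436 and 18.9% ± 0.572, a difference of -3.22 points. For each of these 5 members no library of one group reached the range of the other. A 2-sided exact permutation test over libraries gave p = 0.1 for each, the smallest value that 3 libraries against 3 allow, so that no share could pass 0.05.

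The share of Ifi203 was 14.7% ± 0.346 with PBS and 15.2% ± 0.951 with cisplatin, and the libraries overlapped (exact permutation p = 0.6). In recovered reads in place of FPKM it was 26.3% with PBS and 24.4% with cisplatin. The shares of Ifi207 (4.14% and 11.1%) and Ifi213 (2.57% and 6.24%) were higher with cisplatin in all libraries. As the summed FPKM was 424 with PBS and 189 with cisplatin, the share of a member at an unchanged level rises. Ifi213, whose FPKM overlapped between groups, is such a case, and the same holds in part for Aim2, Ifi207 and Ifi209.

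**Figure D3:**
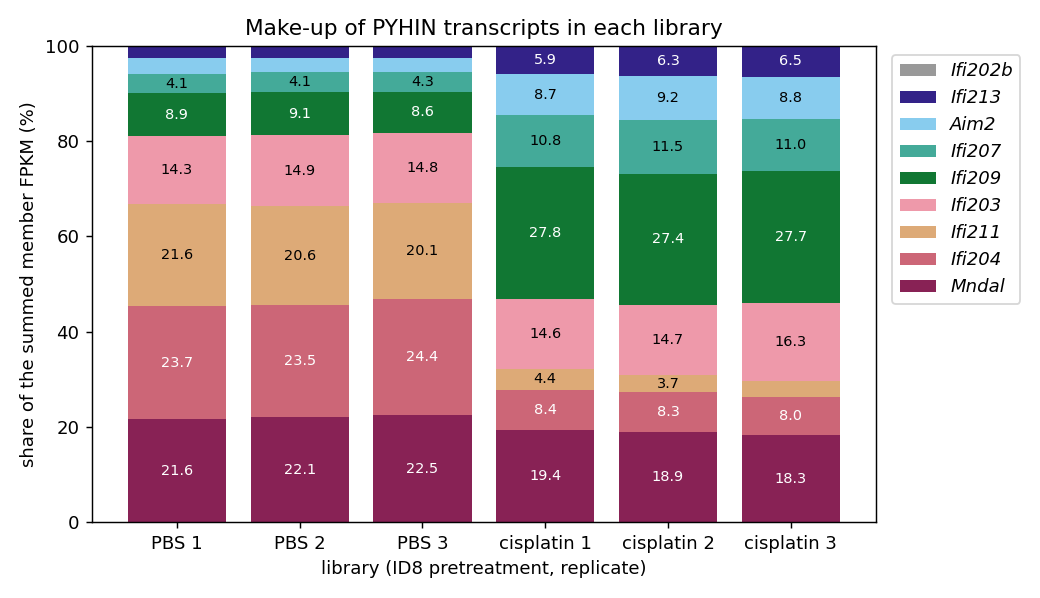
Share of each PYHIN member in the summed FPKM of the members (percent, bars stacked to the whole) in the 3 PBS and 3 cisplatin libraries, with shares above 3.5% printed for members that exceed 5% in some library. Ifi209 takes 8.57% to 9.09% of the PBS libraries and 27.4% to 27.8% of the cisplatin libraries, while Ifi211 takes 20.1% to 21.6% and 3.36% to 4.43%.

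Ratios between lower members also moved. Ifi211 to Ifi204 stood at 0.870 ± 0.0458 (SD, n = 3) with PBS and 0.464 ± 0.0563 with cisplatin. Ifi204 to Mndal stood at 1.08 ± 0.0157 and 0.438 ± 0.00485. Mndal to Ifi203, genes that overlap, stood at 1.51 ± 0.0214 and 1.25 ± 0.110. In each of these ratios the groups were apart, so the lower members did not fall by 1 common factor.

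The partners of AIM2 were taken from a list of 14 inflammasome genes, of which 13 were tested, 2 were called lower and 2 higher, with a median of 0.23 on the log2 scale. Over all genes tested 11.3% were called lower and 4.67% higher, so the lower share of this list was near the background. The higher share was above it, but rested on Nlrp3 and Nlrp1a, which were not called when scaled by Y-linked genes or macrophage markers. Pycard, the gene of ASC, had a mean FPKM of 7.15 ± 0.145 (SD, n = 3) with PBS and 10.4 ± 0.573 with cisplatin, a log2 fold change of 0.48 that was under the threshold. Casp1 was 18.3 ± 1.04 and 28.1 ± 0.822 (0.59), and Il1b, the gene of the cytokine precursor cleaved by caspase-1, was 125 ± 5.56 and 193 ± 5.94 (0.62). These 3 genes did not overlap between groups, and like Aim2 they changed sign when scaled by the Y-linked genes (-0.41, -0.37 and -0.37) or by the macrophage markers (-0.58, -0.54 and -0.56).

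The called genes of the inflammasome list lay in both directions in the deposited scaling, and were all lower when scaled by the Y-linked genes (4 genes) or by the macrophage markers (5 genes). Gsdmd, the gene of the pore-forming gasdermin D, was 161 ± 7.70 with PBS and 47.0 ± 0.827 with cisplatin (log2 fold change -1.76, limma adjusted p = 1.66e-07). Il18, the gene of the other caspase-1 substrate cytokine, was 4.64 ± 0.372 and 1.29 ± 0.276 (-1.31), and reached the filter only through the PBS group. Nlrp3, the gene of a sensor of a different inflammasome, was higher, at 17.4 ± 0.689 and 54.1 ± 2.18 (1.58, limma adjusted p = 3.41e-07). It was 0.62 when scaled by the Y-linked genes and 0.44 by the macrophage markers, and was then not called. Nlrp1a was also higher at a low level, 0.439 ± 0.0619 and 2.05 ± 0.0401 (1.09), and passed the filter only through the cisplatin group. It was 0.60 and 0.51 under those scalings and was not called. Casp8 (0.0026) and Nek7 (-0.13) had the smallest differences. Nek7 was called lower under those scalings (-1.06 and -1.23). Casp8 was then -0.96 and -1.14, called lower by the macrophage markers alone.

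Of 12 genes of cytosolic DNA sensing, to which IFI204 has been linked, 11 were tested, 3 were called lower and 0 higher (11.3% and 4.67% of all genes), and the median was -0.030. The 3 were Irf7, a transcription factor that is itself interferon-induced (-2.59, limma adjusted p = 7.06e-08), Zbp1, a sensor of Z-form nucleic acids (-1.89), and Enpp1, which degrades cyclic GMP-AMP (-1.22). Tmem173, the gene of STING, was 21.9 ± 1.53 with PBS and 21.4 ± 0.514 with cisplatin (-0.030, 95% interval -0.16 to 0.10), and -0.98 and -1.16 when scaled by the Y-linked genes and by the macrophage markers, the latter called lower. Mb21d1, the gene of cGAS, was 3.47 ± 0.198 and 5.36 ± 0.278 (0.51), and -0.30 and -0.45 under those scalings. Irf3 had a log2 fold change of 0.040, and -0.89 and -1.06 under those scalings, the latter called lower. Trex1 was listed at 0 in all libraries, and whether this reflects its expression or the way reads were counted was not tested.

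Of 15 interferon receptor and transducer genes, all tested, 3 were called lower and 0 higher (11.3% and 4.67% of all genes), with a median of -0.24. Usp18, a feedback inhibitor of the type I interferon receptor, was 66.1 ± 0.859 with PBS and 15.9 ± 0.412 with cisplatin (-1.99). Stat2 was 73.8 ± 1.78 and 18.8 ± 0.651 (-1.92), and Irf1 was 56.0 ± 1.25 and 22.3 ± 0.573 (-1.29). Irf9, the DNA-binding partner of STAT2, was 23.0 ± 1.30 and 19.3 ± 0.694, a log2 fold change of -0.24 that was under the threshold. The receptor genes Ifnar1 and Ifnar2 both stood at -0.025, with 95% intervals of -0.13 to 0.079 and -0.15 to 0.11. Under the same scalings Ifnar1 was -0.99 and -1.17 and Ifnar2 was -0.99 and -1.17, and both were called lower by the macrophage markers alone. Irf9 was then -1.19 and -1.37, called lower in either.

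Of 18 interferon-induced genes outside the family, all tested, 17 were called lower and 0 higher (11.3% and 4.67% of all genes), with a median of -2.83. This list was named with earlier results of these data known, and its direction is no independent evidence. Ifi44 was lowest, at 55.7 ± 1.66 with PBS and 2.13 ± 0.446 with cisplatin (-4.19, limma adjusted p = 1.84e-07), followed by Ifit3 at 263 ± 9.18 and 17.7 ± 1.93 (-3.82). The smallest differences were those of Oas2 (-1.46) and of Ifi35 (-0.92), which was not called. On the log2(FPKM + 1) scale all 6 PYHIN genes called lower lay inside the range of this list (with a pseudocount of 0.1, Ifi205 at -4.68 lay just outside, beyond Ifi44 at -4.66), Mndal and Ifi203 between Ifi35 and Oas2, and the genes from Aim2 to Ifi207 lay outside the range.

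**Figure D4:**
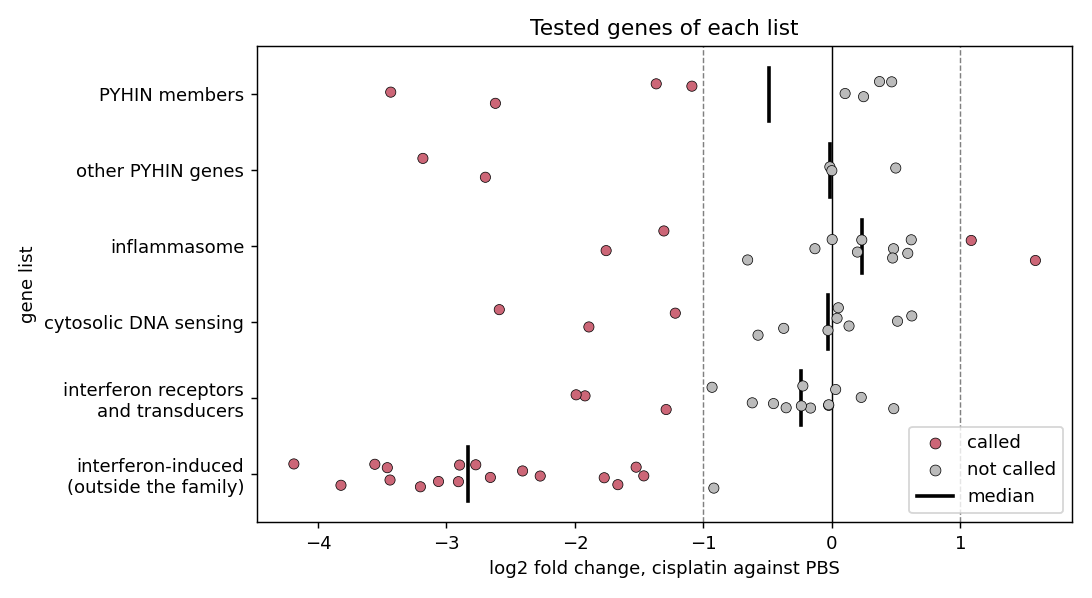
Log2 fold change of every tested gene of 6 lists, with called genes in red, others in grey, the list median as a black line and the fold threshold of 1 as dashed lines; the vertical position within a list is arbitrary. PYHIN members fall on both sides of 0 in the deposited scaling (the members above 0 turn below it when scaled by Y-linked genes or macrophage markers), while the 18 interferon-induced genes outside the family all lie between -4.19 and -0.92.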

How the data were processed

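The members and gene lists were chosen with earlier results of these data known, and names were fixed by rule: all members and family genes, tested genes near the cluster, and per pathway list the 2 largest called and the 2 smallest differences plus 9 fixed genes. Nlrp1a, Casp4, Enpp1, Irf1 and Trex1, and the cell markers Mertk, Aif1, Flt3, Zbtb46 and Lyz2, were named after their values were seen. Poly-T selected RNA of 6 libraries was measured. The authors deposited FPKM values for 54532 genes, with coordinates and lengths. Their methods name LifeScope 2.5.1 and DESeq2, whereas the submitters' processing notes list fastp, HISAT2 2.0.5, featureCounts 1.5.0-p3 and mm10. GENCODE M21 (GRCm38) held 54495 of the identifiers, 98.3% of them at the same coordinates. Strand in counting is not stated.

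FPKM times gene length gave whole reads for 100% of values under 200 reads (tolerance 0.05), and no 2 libraries agreed within sampling noise. Genes with at least 1 FPKM in at least 3 libraries (13441) were tested on log2(FPKM + 1) with limma 3.58.1 under R 4.3.3 (eBayes with trend), cisplatin against PBS. Shares used exact permutation tests over libraries (scipy 1.17.1). Lists were described by counts and medians. Promoters were aligned with Biopython 1.88. Counting floors are 3 reads and cover counting error only. The fit was tested on simulated data. The 19 alternative settings changed pseudocount, filter, scaling, variance model, values tested, threshold, replicate block or libraries, and 1 of them (scaling by 15 macrophage and monocyte markers) was chosen after seeing the data.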

Additional observations from a re-analysis of the deposited data

How the results depend on the processing

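Of the 19 alternatives, 4 members were called lower in all but limma treat (3, without Ifi203) and 0 higher in all but the adjusted p alone (3). The member median was -0.10 with no filter (which adds Ifi202b), -0.42 with quantile normalisation, -0.41 with limma voom on recovered reads, -1.44 with scaling by the Y-linked genes and -1.61 by the macrophage markers, and -0.53 to -0.43 when libraries were left out in turn. Genes called in the inflammasome list numbered 4, but 2 with a filter at 5 FPKM, 10 with the adjusted p alone and 2 with treat. The calls were not the same genes under Y-linked and macrophage scaling, where Nlrp3 (0.62 and 0.44) and Nlrp1a (0.60 and 0.51) lost their calls and Nek7 (-1.06 and -1.23) and Casp4 (-1.60 and -1.78) gained one, as did Casp8 under macrophage scaling. Of all genes 38.5% were called lower under Y-linked and 49.1% under macrophage scaling, the background for these counts. In the DNA sensing list they numbered 3, but 5 with Y-linked scaling, 7 with the adjusted p alone and 9 with macrophage scaling. In the receptor list they numbered 3, but 10, 11 and 13 in the same order. Family genes outside the member list gave 2, but 3 with the adjusted p alone (with Ifi214) and 4 with macrophage scaling (with Ifi206 and Ifi208). Without any 1 library these counts did not move. Over all genes a pseudocount of 0.1 called 1981 lower and 973 higher, voom 1862 and 1227, and treat 982 and 240, against 1514 and 628. The causes of these shifts were not tested.

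Signs turned under Y-linked scaling for Aim2 (-0.56), Ifi207 (-0.70), Ifi209 (-0.51), Ifi213 (-0.81), Ifi214 (-0.19), Casp8 (-0.96), Irf3 (-0.89), Pycard (-0.41), Casp1 (-0.37), Il1b (-0.37) and Mb21d1 (-0.30), and under macrophage scaling for the same genes in that order (-0.74, -0.88, -0.69, -0.98, -0.31, -1.14, -1.06, -0.58, -0.54, -0.56 and -0.45). Genes with differences near 0 turned elsewhere: Ifi206 (0.057 quantile, 0.071 voom, -0.068 to 0.046 without a library), Ifi208 (0.011 median-of-ratios, 0.11 quantile, 0.091 voom, -0.045 to 0.039 without a library), Tmem173 (0.012 quantile, 0.058 voom, -0.074 to 0.021), Ifnar2 (0.027, 0.060, -0.070 to 0.017), Ifnar1 (0.049, 0.062, -0.052 to 0.0048), Casp8 (-0.0045 with TPM rescaling, -0.056 to 0.040 without a library) and Irf3 (-0.0038 to 0.099 without a library).

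In recovered reads in place of FPKM, where short genes weigh less, the Aim2 share differed by 4.65 points, that of Mndal by -4.96, that of Ifi203 turned to -1.83 (from 0.51), and that of Ifi211 was 9.90% with PBS and 1.65% with cisplatin. Without single libraries the FPKM shares of Aim2 and Mndal differed by 5.73 to 6.01 and by -3.50 to -2.93 points. A fit with a replicate block called 1515 genes lower and 625 higher, 2135 of them also called without it, and 4 members lower. Same-numbered libraries did not deviate together (r from -0.10 to -0.024 across genes, which are not independent replicates), so the numbers do not pair the libraries. Depth limits Ifi202b and the cisplatin values of Ifi205.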
